A study of Mus musculus with 8 samples.

Results

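The NR2 family of orphan nuclear receptors was followed here through 5 genes, Nr2f1, Nr2f2, Nr2f6, Nr2c1 and Nr2c2. They were chosen by name as a family that includes known repressors of globin genes, with results of these data already known. A gene was matched by its symbol in both deposited gene tables, joined on Entrez identifier, length and mean expression, and a ChIP-seq site was assigned to it when it was the closest transcription start site (TSS) in the site table. Of the 5 genes, 4 had a row in both tables, among 11364 rows. Of the 5551 consensus sites, 5 had a gene of these 5 as their closest TSS. Below, NR2 genes and NR2 sites mean these 5 genes and their sites.

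The cells are K1, an immortalised erythroid line from Klf1-/- mouse fetal liver, and K1-E339K-ER (K1-CDA-ER in the labels), the same line carrying KLF1 with the E339K change fused to an estrogen receptor domain and expressed from a retrovirus. 4sU-RNA-seq, which sequences RNA made during a short pulse of 4-thiouridine, covered 3 libraries of each line. All 3 K1-E339K-ER libraries, each from its own clone, and 2 K1 libraries are labelled as given 200 nM 4-OHT, which binds the estrogen receptor domain and lets the fusion enter the nucleus, and 1 K1 library is labelled ethanol, although its protocol text gives 4-OHT as for the rest. The ChIP library, made from 3 pooled replicates of 1 K1-E339K-ER clone after 3 h of induction, has 1 input library, and the wild type KLF1-ER libraries set against it were made from K1-ER cells in an earlier study, and have no value of their own here.

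NR2 receptors bind DNA as dimers at repeats of the hormone response half-site and mostly act as repressors. TR2 (Nr2c1) and TR4 (Nr2c2) form the DNA-binding core of the DRED complex, which silences embryonic and fetal globin genes together with the methyltransferase Dnmt1 and the demethylase Kdm1a. COUP-TFII (Nr2f2) also represses globin genes of the embryo and fetus, its paralog COUP-TFI (Nr2f1) is best known from neural development, and EAR2 (Nr2f6) acts in blood progenitors and lymphocytes.

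KLF1 recognises a G-rich sequence of 9 bases. The wild type form has a pyrimidine at position 5 (NGGGCGGGG, NGGGCGTGG, NGGGTGGGG or NGGGTGTGG, here the pyrimidine motif), and the variant searched beside it for KLF1-E339K has a purine there (NGGGAGGGG, NGGGAGTGG, NGGGGGGGG or NGGGGGTGG, the purine motif). The sequences of the 5 NR2 sites are shown to let these letters be read beside the binding values. They are from mm9, run 5′ to 3′, and carry purine matches in capitals except in the fourth, where pyrimidine matches are in capitals. Windows of 101 bases at the site midpoint are given for sites outside transcript ends, and only the bases around a match for the pair of sites in exons of Nr2f1.
Nr2f1, 1633 bp upstream (chr13:78339826-78339926, plus strand): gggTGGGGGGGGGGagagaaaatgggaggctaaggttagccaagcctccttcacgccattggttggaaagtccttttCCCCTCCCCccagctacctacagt
Nr2f1, at the TSS of the site table (chr13:78338218-78338245, minus strand): cgctGGGGGGTGGGGAGGGGggagagag
Nr2f1, 405 bp downstream (chr13:78337897-78337924, plus strand): gggcgcgcTGGGAGGGGaaggggaaggg
Nr2f1, 4654.5 bp upstream, pyrimidine matches (chr13:78342847-78342947, plus strand): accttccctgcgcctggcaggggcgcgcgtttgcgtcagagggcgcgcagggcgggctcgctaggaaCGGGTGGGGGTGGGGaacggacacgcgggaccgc
Nr2c1, 13688.5 bp downstream (chr10:93624314-93624414, plus strand): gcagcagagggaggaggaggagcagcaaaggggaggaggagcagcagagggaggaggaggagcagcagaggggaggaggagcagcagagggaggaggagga

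Binding was concentrated at Nr2f1 (chromosome 13, 78328234 to 78339018, minus strand). Its 4 sites lay within 5423 bp around the start of the gene, and at 3 of them KLF1-E339K-ER had the higher value. Binding is given as a concentration, the log2 of the mean normalised read count that the authors' DiffBind analysis lists for each protein. A difference of at least 1 on this scale (2-fold) was counted as higher. Each value is an authors' mean with no error, so no difference between the proteins could be tested. The proteins were also profiled in different cell lines and studies, so protein, line and study cannot be told apart.

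The strongest Nr2f1 site, 399 bp wide from 78339677 to 78340075, had an authors' mean concentration of 7.25 for KLF1-E339K-ER and 2.37 for KLF1-ER. The mutant value was thus higher by 4.88 on the log2 scale. It stood at the 97.9th percentile of all mutant concentrations, whose median was 4.86. The midpoint lies 1633 bp upstream of the TSS used in the site table, in an intron of A830082K12Rik, a gene on the opposite strand, and the site touches an exon of the long noncoding RNA gene Gm8327.

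At the TSS of the site table, the site from 78338069 to 78338384 was listed at 5.50 for KLF1-E339K-ER and at -0.09 for KLF1-ER, with a midpoint 16.5 bp downstream of the start. That start, 78338243, is the one the site table uses, and all distances of the Nr2f1 sites are from it. The annotated start of Nr2f1, 78339018, lies further upstream, 791.5 bp from the same midpoint, so the site is inside the annotated gene. The next site, from 78337685 to 78337991 and 405 bp downstream, had 5.41 and -0.09 in the same order. Both overlap annotated exons of Nr2f1, the former in untranslated sequence and the latter across untranslated and coding sequence. The value of -0.09 is the lowest listed for KLF1-ER and was shared by 1424 sites (25.7%), so the differences of 5.59 and 5.50 rest on that floor. Low wild type values came in steps of about 0.5 times the lowest value on the linear scale, so values near the floor can take only a few levels. A site entered the consensus set through a peak for either protein, so a site low for one protein was, as a rule, high for the other.

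The remaining Nr2f1 site went the other way. From 78342688 to 78343107, centred 4654.5 bp upstream in an intron of A830082K12Rik, it had a concentration of 5.20 for KLF1-ER and 4.15 for KLF1-E339K-ER. The wild type value was higher by 1.05, just past the 2-fold limit, and the mutant value was far above its own floor of -0.38. It was the only one of the 5 NR2 sites with a higher wild type value.

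**Figure D1:**
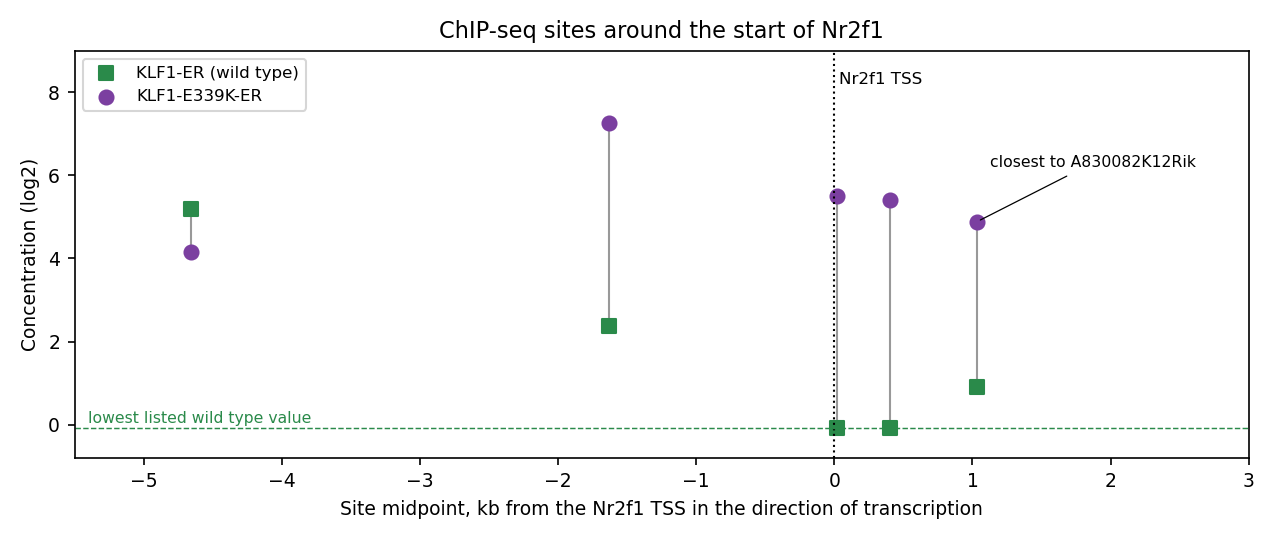
Concentration (log2, authors' mean) of KLF1-ER (squares) and KLF1-E339K-ER (circles) at each site within 6 kb of the Nr2f1 TSS, against the position of the site midpoint in kb in the direction of transcription. KLF1-E339K-ER lies above KLF1-ER at the 3 Nr2f1 sites nearest to the start and at the neighbouring A830082K12Rik site, and below it 4654.5 bp upstream.

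A further site overlapped the gene but was assigned to A830082K12Rik, whose start lies 65 bp from its midpoint. It ran from 78336960 to 78337466 across untranslated and coding exon sequence of Nr2f1, and had 4.88 for KLF1-E339K-ER and 0.91 for KLF1-ER. A second A830082K12Rik site, 35757.5 bp from the Nr2f1 TSS and in an intron of Fam172a, had 6.79 for KLF1-ER and 4.33 for KLF1-E339K-ER.

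Nr2c1 (chromosome 10, 93610768 to 93659956, plus strand) was the closest TSS of 1 site, from 93624074 to 93624655. Its authors' mean concentration was 4.95 for KLF1-E339K-ER, near the median of all sites, and 0.50 for KLF1-ER, a difference of 4.45. The site table lists its distance as -13688.5 bp. In that table the sign followed the genome coordinate and not the direction of the gene. Adding the listed distance to the midpoint gave an annotated start within 100 bp for 94.5% of 1849 sites of plus strand genes and 94.0% of 1712 sites of minus strand genes, counting sites more than 500 bp away. The Nr2c1 site therefore lies downstream of the start, in an intron.

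Nr2f6, Nr2c2 and Nr2f2 were the closest TSS of no site. The nearest listed site to the annotated start of Nr2f6 (chromosome 8, 73898022 to 73905859) was 108932.5 bp away and belonged to Myo9b. For Nr2c2 (chromosome 6, 92041384 to 92123051) it was 811692 bp away, and for Nr2f2 (chromosome 7, 77496832 to 77511621) 2237382.5 bp away.

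Across the 5 genes, 4 of 5 sites were at least 2-fold higher for KLF1-E339K-ER, beside 61.5% of all sites. The remaining 1 was at least 2-fold higher for KLF1-ER, beside 28.7%. The same 4 sites were at least 4-fold higher for the mutant, beside 55.3% of all sites, and none was 4-fold higher for the wild type, beside 23.3%. With 5 sites, 4 of them at a single gene, these counts describe the NR2 sites and do not set them apart from the rest. Nr2f1 belonged to the 169 genes with 4 or more sites, 4.60% of the 3670 genes that were the closest TSS of any site, and to the 103 genes with 3 or more mutant-higher sites within 10 kb.

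**Figure D2:**
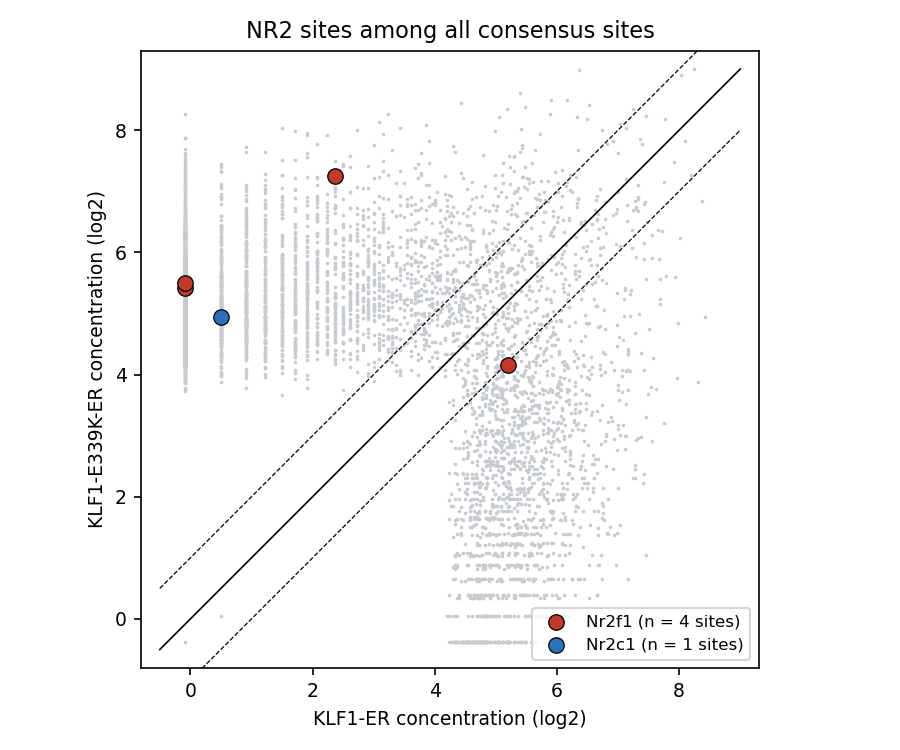
KLF1-E339K-ER against KLF1-ER concentration (log2, authors' means) for all 5551 consensus sites (grey), with the 4 Nr2f1 sites (red) and the Nr2c1 site (blue). The solid line marks equal values and the dashed lines a 2-fold difference, and 4 of the 5 NR2 sites lie above the upper dashed line.

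Of the 4 Nr2f1 sites, 3 held a purine match near the midpoint. Both strands were searched within 50 bp of the midpoint. The site 1633 bp upstream held 4 purine matches in this window, 3 of them overlapping in the run of G shown above and a further GGGGAGGGG on the minus strand, 31 bp from the midpoint. It held no pyrimidine match wholly inside the window, but GGGGTGGGG overlapped the run of G at its edge, 47 bp from the midpoint. The site at the table's TSS held GGGGAGGGG 3.5 bp and GGGGGGTGG 10.5 bp from its midpoint, with an overlapping pyrimidine match, GGGGTGGGG, between them. The site 405 bp downstream held none in this window, and its 3 purine matches were centred 71 to 102 bp from the midpoint, beside 1 pyrimidine match at 108 bp.

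The upstream site with the higher wild type value held both kinds. CGGGTGGGG and GGGGTGGGG, both pyrimidine matches, were centred 20.5 and 26.5 bp from its midpoint, and TGGGGGTGG, a purine match, overlapped them at 24.5 bp. The Nr2c1 site held neither motif anywhere in its 582 bp. It is a repeat of short purine-rich units, with 68.7% A or G on the plus strand. Reads that mapped to several places had been removed by the authors, but whether the repeat affects the listed values was not tested.

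Thus 3 of the 5 NR2 sites held a purine match within 50 bp of the midpoint, beside 35.5% of all sites. The 3 include the site with the higher wild type value. Of the mutant-higher NR2 sites, those 1633 bp upstream and at the table's TSS held a purine match. Those 405 bp downstream and at Nr2c1 did not, and the share among all sites at least 2-fold higher for the mutant was 45.8%. A pyrimidine match was found at 2, beside 35.3% of all sites. They are the mutant-higher site at the table's TSS and the site with the higher wild type value. The share was 22.8% of sites at least 2-fold higher for the mutant and 60.7% of those for the wild type. The 2 motifs overlap in long runs of G, so their counts are not independent.

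Promoter sequences from RefSeq (GRCm38.p6, 250 bases before to 50 after a start) were found for all 5 genes, with a pair of windows for Nr2f1. Nr2f1 held 5 purine matches and 1 pyrimidine match in the first window and none in the other. These matches have the words and spacing of those in the site at the table's TSS and are the same motif run, not further ones. Nr2f2, which had no site, held 4 purine matches, GGGGAGGGG 198 bp before the start and 3 overlapping ones about 60 bp before it. Nr2f6 held 4 pyrimidine matches, among them AGGGCGGGG 125 bp before the start, and no purine match. Nr2c1 and Nr2c2 held neither. Of all 32851 promoter windows, 22.6% held a purine match and 29.7% a pyrimidine match, so a match in these letters is common. Whether promoters with a match had a site more often than others was not tested.

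The deposited gene tables give 1 mean over all libraries of the fit for each gene, as voom's log2 CPM, and no value per library. The mean is the same in both tables, 1 for KLF1-E339K-ER and 1 for KLF1-ER, so it also takes in the K1-ER libraries of the earlier study. All 15 erythroid markers of a fixed list were present, with mean log2 CPM from 3.79 (Hba-a1) to 10.80 (Zfpm1). Of the other lists, 2 of 5 megakaryocyte markers had a row (Itga2b at 5.30 and Gp9 at 1.79), as did 2 of 5 macrophage markers (Emr1 at 3.69 and Cd68 at 0.24) and 0 of 4 lymphoid markers. Itga2b and Emr1 were thus within the range of the erythroid list or just below it. Klf1, the gene that K1 cells lack, had a mean log2 CPM of 6.84 over libraries that include the KLF1 transgenes, so the labels could not be checked library by library. Counts per library, and so the depth and the spread between replicates, are not held in these tables.

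Nr2f1 had the highest level per length among the NR2 genes. Its mean log2 CPM was 6.58, or 3.25 per kb of the listed length of 10008 bp, at the 87.0th percentile of all listed genes. Reads of Nr2f1 and of the antisense gene A830082K12Rik, with a mean log2 CPM of 5.16, cannot be told apart over the 1741 bp where the genes overlap unless strand was used in counting, which is not given in the sources used here.

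Nr2f6 followed with a mean log2 CPM of 5.34, or 2.37 per kb, at the 76.6th percentile. It lay 0.89 below Nr2f1 on the log2 scale per kb. The DRED core pair came last. Nr2c2 had 7.23, the highest mean log2 CPM of the listed members before length is considered. Per kb over its 81641 bp Nr2c2 had 0.88, at the 51.0th percentile. Nr2c1, its partner in the complex, had 4.06, or -1.56 per kb over 49284 bp, at the 18.5th percentile and 2.44 below Nr2c2 per kb. Nr2f2, the other globin repressor among the members, had no row. The lengths are those of gene spans with introns: for 84.6% of 10043 genes matched by symbol they were within 10% of the annotated span. Without a spread between libraries, whether neighbours in this order differ could not be tested.

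**Figure D3:**
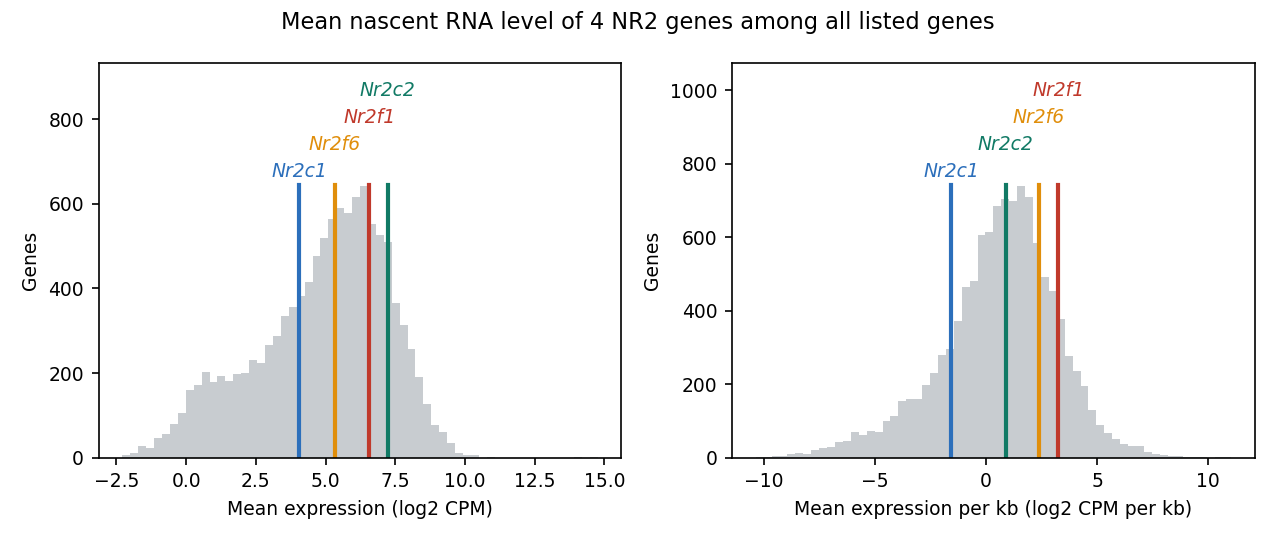
Distribution of mean expression over all 11364 listed genes as log2 CPM (left) and as log2 CPM per kb of listed length (right), with the 4 listed NR2 genes as vertical lines. Per kb Nr2f1 is the highest of the 4 and Nr2c1 the lowest, whereas Nr2c2 is the highest before division by length.

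The partners, cofactors and related receptors of the NR2 family were examined as a fixed list of 65 genes, of which 48 had a row in the gene tables. Within 10 kb of their start, 24 of these 48 (50%) had a site, beside 21.2% of the 11258 Entrez identifiers in the tables. Counting all 65, 25 genes had 67 such sites. KLF1-E339K-ER was at least 2-fold higher at 57 of them (85.1%), beside 60.4% of all sites within 10 kb of a start. Of the 57, Thra held 8, Rara 8 and Rarg 6, so the sites are not independent of each other. KLF1-ER was at least 2-fold higher at 6, beside 28.7% of all sites at any distance, and 4 passed in neither direction.

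Other nuclear receptors held most of these sites. Of 19 listed by name, 12 had a row, and 9 of these (75%) had a site within 10 kb, beside 21.2% of all Entrez identifiers. They had 34 sites in all, and 32 (94.1%) were mutant-higher, beside 60.4% of all sites within 10 kb. Thra, the thyroid hormone receptor alpha gene, had 8, with differences from 1.20 to 7.70 in favour of the mutant, and Rara, the retinoic acid receptor alpha gene, had 8, from 1.80 to 5.77. Rarg, the gamma form, had 6. Nr4a1, an immediate early receptor, had 3, Nr3c1, the glucocorticoid receptor, 2, and Esrra and Nr1d2 had 1 each. Nr1d1 and Ppard each had a site with a higher wild type value as well, with differences of -2.79 and -5.62. The sites of Thra, Nr1d1 and Rara lie in 1 stretch of chromosome 11, from 98599814 to 98826970, so they are not spread over the genome. Of the RXR partners, which form dimers with NR2 receptors, Rxrb had 1 site, at 6.30 for KLF1-E339K-ER and at the floor for KLF1-ER.

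Among 26 corepressor and DRED genes, 8 had a site. Of the 21 with a row, 7 (33.3%) had one, beside 21.2% of all Entrez identifiers. Of the 14 sites of the 8 genes, 12 (85.7%) were mutant-higher, beside 60.4% of all sites within 10 kb. None was wild type-higher, beside 28.7% of all sites at any distance. Chd4, the NuRD remodeller, and Zfpm1, the GATA1 cofactor FOG1, had 3 each, Sin3a and Gatad2a 2 each, and Hdac2, Rcor1 and Mta2 were among those with 1. At the Mta2 site the difference was 0.48, and at a Gatad2a site 0.05. Dnmt1 and Kdm1a, the DRED enzymes, had none. Of the 6 coactivator genes with a row, Ep300 and Ncoa2 (33.3%) had a site within 10 kb, beside 21.2% of all Entrez identifiers. Ep300 had 3 and Ncoa2 1, all mutant-higher, beside 60.4% of all sites within 10 kb.

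Of 8 erythroid and globin regulators on the list, 6 had a row, and 5 of these (83.3%) had a site within 10 kb, beside 21.2% of all Entrez identifiers. Of their 14 sites, 8 (57.1%) were mutant-higher, near the 60.4% of all sites within 10 kb. A further 4 were wild type-higher, beside 28.7% of all sites at any distance, and 2 passed in neither direction. Zbtb7a, a repressor of the fetal globin genes, had 2 in each direction and 1 in neither. Gata1 had 3 mutant-higher sites and another, 47 bp from its start, at 7.43 for KLF1-ER and 6.79 for KLF1-E339K-ER, in neither direction by the 2-fold limit. Sox6, a further globin repressor, had 2 mutant-higher sites. Tal1 had 1 in each direction, and the single Ikzf1 site had 4.79 for KLF1-ER and 3.70 for KLF1-E339K-ER. The list was put together with results of these data known, so these shares describe its genes.

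**Figure D4:**
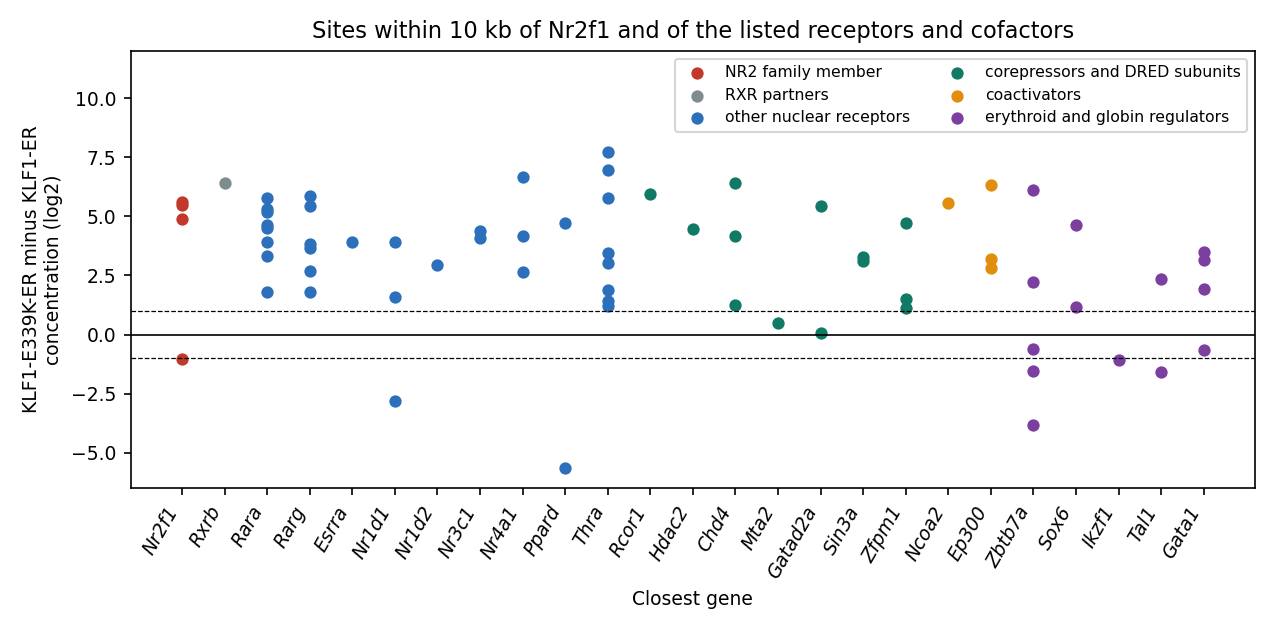
Difference in concentration, KLF1-E339K-ER minus KLF1-ER (log2), at each site within 10 kb of Nr2f1 and of the listed genes named in the text, coloured by role. Dashed lines mark a 2-fold difference, and all 8 Thra and all 8 Rara sites lie above the upper line.

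Sites with the pair of concentrations most like each NR2 site were sought among the other sites within 10 kb of a start, by straight-line distance between the pairs on the log2 scale. For the strongest Nr2f1 site they were those of Aph1a (0.21 away), Fkbp2 (0.21) and Creb3l1 (0.23), of 3749 sites. For the upstream Nr2f1 site with the higher wild type value they belonged to Tmpo (0.03), Sphk1 (0.08) and St6galnac6 (0.11). Sites of Pi4k2a and Rnf208 had exactly the values of the site at the table's TSS, and Tcf3 was named by genome order from those at 0.01, 11 sites being that near or nearer. For the site 405 bp downstream 4 others had the same pair, among them those of Mpp3, Fgfbp3 and Celsr2. The Nr2c1 site was nearest to sites of Btg2 and Midn (0.01 each) and Ppm1a (0.02), the last by genome order, with 7 sites that near or nearer.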

How the data were processed

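Per the labels and the study's methods, reads from the Ion Proton were mapped to mm9 with TopHat2 (2.0.10) followed by TMAP (RNA) or with TMAP alone (ChIP). For ChIP, duplicate and multi-mapped reads were removed and peaks were called with MACS2 and GEM. The authors deposited log2 values: mean expression as voom's log2 CPM in the gene tables, and DiffBind's mean concentration per protein in the site table. The counting tool and gene annotation are not given in the sources used here. The labels give 500 µM 4sU for 30 min, and the methods give another dose and time.

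The deposited tables also hold the authors' own comparisons (log2 fold changes, moderated t, Fold, p-values and false discovery rates). These columns were not used, so no change in expression is reported and no test was possible.

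Members and lists were chosen with earlier results of these data known. The genes named are the 5 members, the genes of the fixed list with a site within 10 kb, the 3 sites nearest to each member site, Klf1 and the cell type markers, except that 1 gene of the fixed list, included in its totals, is not reported here; A830082K12Rik, Gm8327, Fam172a and Myo9b were named after their values were seen. Differences in concentration were computed as mutant minus wild type. Symbols were matched through Entrez identifiers. All sites fit the chromosomes of the NCBIM37 (mm9) sequence, which was read with pysam 0.24.0, and GENCODE release M1 gave positions. The 2-fold calls were checked on simulated differences well past the limit, and the motif search on single matches planted in sequence of A and T. Neither check covers differences near the limit or overlapping matches in G-rich sequence.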

Additional observations from a re-analysis of the deposited data

How the results depend on the processing

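No paired analysis was possible because the tables hold means over libraries and no column carries a replicate number, and for the same reason no library could be left out. At a 4-fold limit in place of 2-fold, 4 NR2 sites remained mutant-higher and 0 wild type-higher. Within 10 kb of the TSS 1 of the members had a site, beside 21.2% of all Entrez identifiers. At any distance 2 members had a site, and 2 within 50 kb of the annotated start. Over the whole site in place of 50 bp either side of the midpoint, 4 of the 5 sites held a purine match and 4 a pyrimidine match. Of all sites, 58.4% and 58.6% did over the whole site. Within 100 bp 4 and 3 of the 5 sites did, beside 48.2% and 47.2% of all sites. Division of the levels by gene length left 1 of 4 members, Nr2c1, in the same place in the order. Within 1 kb 14 genes of the fixed list had a site, and at any distance 27. Among the 4127 sites with a wild type concentration above the lowest value, 48.2% were at least 2-fold higher for the mutant, against 61.5% of all sites. Restricting the background to genes with a mean log2 CPM of at least 0 placed each listed member at a lower percentile, from 84.7 for Nr2c2 to 30.2 for Nr2c1.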
